A study of Mus musculus with 4 samples.

Results

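The cells described here are Ly6c2 Ccr2 monocytes of mouse skin, 487 of the 27755 cells kept in 4 single-cell libraries. They were chosen by transcripts alone. A barcode needed 300 or more genes, and mitochondrial genes could hold no more than 15% of its UMIs (unique molecular identifiers, 1 per counted transcript). A member held at least 3 UMIs of Ly6c2, at least 1 of Ccr2 and at least 1 of Csf1r, and 0 of the CD3 genes. It also held fewer than 10 UMIs of Arg1, less than 0.1% of its UMIs in the 3 C1q genes and less than 1% in S100a8 and S100a9. These limits keep macrophages, neutrophils and T cells out, so the levels of those genes in the members are fixed by the choice and are given as a description. The members came to 18 cells in untreated skin, 340 on oxazolone day 10, 104 on oxazolone day 16 and 25 with MC903. Plac8 and Ms4a4c, markers of the name that the limits do not use, were both present as described below. They were picked with earlier results of these data known, so their presence is no independent check of the name.

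Each library pooled digested neck and ear skin of 3 female C57BL/6J mice aged 6 to 8 weeks, and dead cells had been removed. The untreated library came from mice given neither agent. Oxazolone, a contact hapten, was given at 3% for sensitisation on the back and ears and at 1.0% every other day from 7 days later, in 100 µL, and the 2 oxazolone libraries were harvested on days 10 and 16. Calcipotriol, an analog of vitamin D also called MC903, was applied at 1 nmol in 100 µL each day for 9 days, and no vehicle-treated library was analysed here.

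Classical monocytes leave the bone marrow through the chemokine receptor CCR2, circulate with high surface Ly6C and enter inflamed tissue, where they can become macrophages or antigen-presenting cells. In skin they are known to carry antigen, to take up MHC class II expression after entry and to release cytokines such as IL-1β. Cells in transit express genes of blood monocytes, such as Vcan (the proteoglycan versican) and Plac8, and lose them as macrophage genes rise.

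Library totals ranged from 73054242 to 119717836 UMIs, and the monocytes held 207214 UMIs in untreated skin, 5228551 on oxazolone day 10, 2491361 on oxazolone day 16 and 669108 with MC903. Their median depth was 10216.5, 14193.5, 23145.5 and 24740 UMIs per cell in the same order. Between pairs of libraries 67 barcodes were shared, and 1 of them was a monocyte in 1 library of its pair. With 1 library per group there is no replicate of a treatment, so values between libraries carry intervals of 95% confidence for counting error only, and no test was made between groups. The files of the untreated and oxazolone day 10 libraries name an earlier version of the counting software than those of the other 2 libraries. Each ratio below therefore also runs between software versions, which cannot be told apart from the treatments.

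Monocytes were rarest in untreated skin and most frequent on oxazolone day 10. They made up 0.234% of the cells kept in untreated skin (exact Clopper-Pearson interval 0.139 to 0.369%), and 4.10% on oxazolone day 10 (3.68 to 4.54%). On oxazolone day 16 the share was 1.31% (1.08 to 1.59%), and with MC903 it was 0.651% (0.421 to 0.959%). The intervals of the 3 treated libraries lay above that of untreated skin, and those of the treated libraries did not overlap each other. Among Csf1r-positive phagocytes the monocytes were 3.45% of 522 cells in untreated skin, 17.6% of 1932 on oxazolone day 10, 6.79% of 1532 on oxazolone day 16 and 9.12% of 274 with MC903. On that denominator the intervals of oxazolone day 16 and MC903 overlapped (5.58 to 8.17% and 5.99 to 13.2%). A gate on cells thinned to 2000 UMIs, with 1 UMI each of Ly6c2, Ccr2 and Csf1r, gave 0.0544%, 1.21%, 0.263% and 0.0567% of cells in the same order. Untreated skin and MC903 (4 and 2 cells) could not be told apart at that depth. Only the minimums of Ly6c2, Ccr2 and Csf1r were set on thinned cells. The limits on Arg1, CD3, C1q, S100a8 and S100a9 stayed on unthinned cells, so the Arg1 limit of 10 UMIs still depended on depth.

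**Figure D1:**
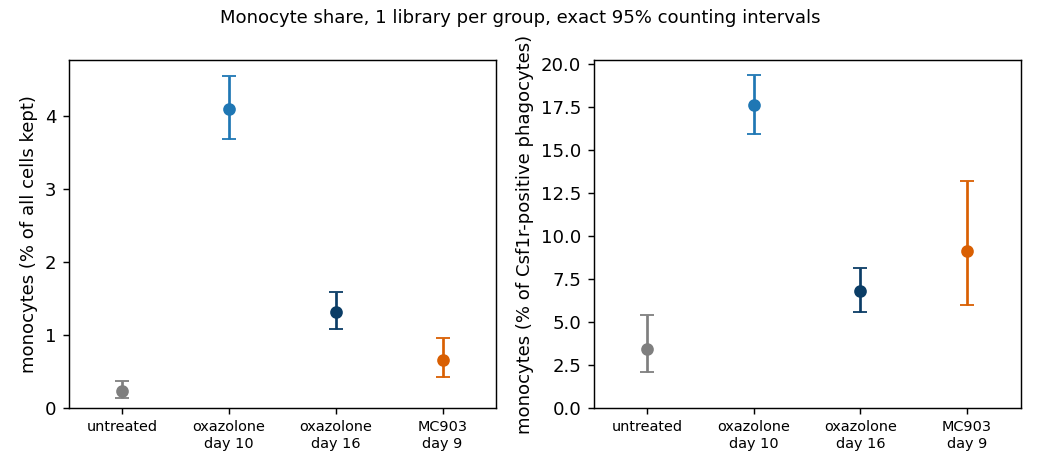
Monocytes as a percentage of all cells kept (left) and of Csf1r-positive phagocytes (right) in each of the 4 libraries, with exact 95% intervals for counting error. The oxazolone day 10 library stands highest on both denominators, at 4.10% and 17.6%.

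The number of members also depended on how many Ly6c2-positive cells carried macrophage genes. Cells above the Ly6c2, Ccr2 and Csf1r limits numbered 20 in untreated skin, 545 on oxazolone day 10, 525 on oxazolone day 16 and 41 with MC903. On oxazolone day 16 the limit on Arg1, the arginase gene of alternatively activated and wound macrophages, removed 69.0% of them and left 19.8% as members. On oxazolone day 10 that limit removed 8.07% and the C1q limit 29.5%, with 62.4% left. With MC903 the Arg1 limit removed 31.7%, the C1q limit 7.32%, and 61.0% stayed, while in untreated skin 90.0% stayed and the C1q limit took the rest. The 2 oxazolone libraries thus held similar numbers of cells above the Ly6c2, Ccr2 and Csf1r limits (545 and 525), and the share of them above the Arg1 limit differed.

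**Figure D2:**
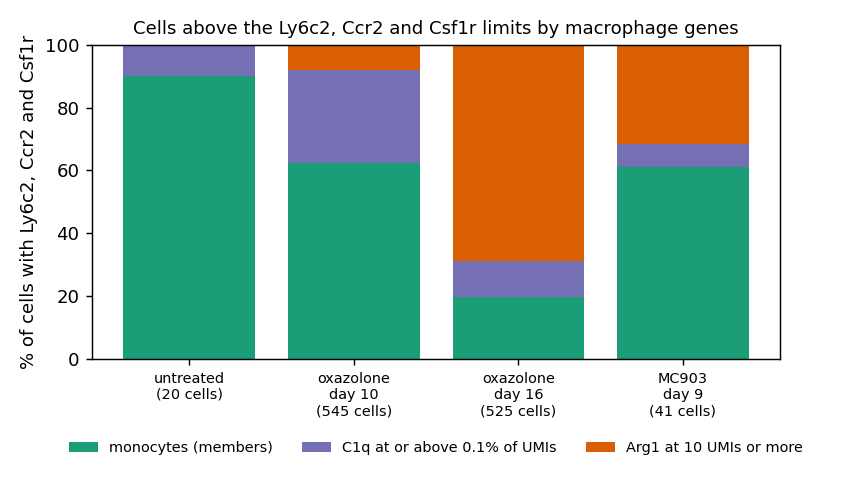
Cells above the Ly6c2, Ccr2 and Csf1r limits in each library, split by percentage into members, cells removed by the C1q limit and cells removed by the Arg1 limit. Members make up 90.0, 62.4, 19.8 and 61.0% from left to right.

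The limits cut through a continuum of cells. Members with exactly 3 UMIs of Ly6c2 (69 cells) held Plac8 at 1075 CPM (a gene's UMIs, summed over the cells and scaled to a common total), while cells that met all other limits with 2 UMIs (85 cells) held it at 1096 CPM. With 1 UMI of Ly6c2 (135 cells) Plac8 stood at 500.4 CPM and with none (516 cells) at 218 CPM. At the Arg1 limit, 13 members with 5 to 9 UMIs held Plac8 at 1151 CPM and Vcan at 559 CPM, and 19 cells just outside, with 10 to 19 UMIs, held them at 591 and 693 CPM. At the C1q limit, 162 members with some C1q held Plac8 at 1504 CPM and Vcan at 1063 CPM, and 68 cells with 0.1 to 0.2% C1q held them at 1275 and 639 CPM. Ms4a4c stood at 387 and 391 CPM on the 2 sides of that limit.

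Genes of blood monocytes that the choice did not use were present in every library. Plac8, a small cysteine-rich protein of myeloid progenitors and monocytes, stood at 1428 CPM in untreated skin, 1804 CPM on oxazolone day 10, 1412 CPM on oxazolone day 16 and 1351 CPM with MC903. Ms4a4c, a 4-transmembrane protein of Ly6C-high monocytes, stood at 671 CPM in untreated skin, 421 CPM on oxazolone day 10, 370.5 CPM on oxazolone day 16 and 326 CPM with MC903. UMIs of Plac8 were found in 16 of 18, 330 of 340, 102 of 104 and 24 of 25 cells. After thinning each cell to 2000 UMIs, 80.9% of day 10 monocytes held a Plac8 UMI (97.1% before thinning), against 11.1% of fibroblasts of that library (median depths 14193.5 and 20236 UMIs). For Ms4a4c the thinned shares were 52.9% in monocytes (94.4% before) and 0.194% in fibroblasts. In the order untreated, oxazolone day 10, oxazolone day 16 and MC903, thinned Plac8 shares were 77.8, 80.9, 76.0 and 72.0% in monocytes. In fibroblasts they were 3.09, 11.1, 25.4 and 13.7%. Ly6c2 itself stood at 637, 672, 709 and 655 CPM in the same order of libraries and Ccr2 at 555, 784, 650.2 and 762 CPM, as chosen.

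Other genes of blood monocytes differed more between libraries. Summed over the 15 genes of the classical monocyte list, the level was 5328 CPM in untreated skin, 7222 CPM on oxazolone day 10, 9259 CPM on oxazolone day 16 and 15139.6 CPM with MC903. Chil3 (Ym1, a chitinase-like protein of monocytes and type 2 macrophages) alone gave 47.0% of the MC903 sum. It stood at 463 CPM in untreated skin, 941 CPM on oxazolone day 10, 2404 CPM on oxazolone day 16 and 7117 CPM with MC903, and was at 0 in 10 of 18, 92 of 340, 11 of 104 and 3 of 25 cells. Thbs1, the matrix and platelet protein thrombospondin 1, went from 57.9 CPM in untreated skin to 642, 1447 and 1735 CPM. Vcan (873, 1163, 1058 and 879 CPM), F13a1 (coagulation factor XIII A, 454, 514, 612 and 619 CPM) and Hp (haptoglobin, 145, 273, 249 and 404 CPM) stayed within a narrower range.

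Of the 10 genes listed for non-classical, patrolling monocytes, 5 (Ace, Treml4, Spn, Eno3 and Cd300e) stayed at or under 11.3 CPM in every library. Cx3cr1, the fractalkine receptor, stood at 125 CPM in untreated skin and at no more than 14.9 CPM in the treated libraries. Itgal, an integrin chain of leukocytes, stood at 164, 63.3, 98.3 and 79.2 CPM in the order untreated, oxazolone day 10, oxazolone day 16 and MC903, and Pou2f2 at 101, 40.5, 47.8 and 50.8 CPM. Adgre4 stood at 72.4 CPM in untreated skin and at no more than 23.5 CPM in the treated libraries. Nr4a1, which non-classical monocytes need but which is also an early response gene, was the highest of the list with MC903, at 188, 94.9, 313 and 667 CPM. Granule genes of bone marrow precursors (Mpo, Elane, Ctsg) were each under 5 CPM in every library, while Prtn3 (proteinase 3) reached 27.0, 25.3 and 47.8 CPM in the treated libraries and had 0 UMIs in untreated skin, where a count of 0 in the 18 members allows a level of up to 14.5 CPM.

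Against C1q macrophages, the monocytes were set apart by blood-monocyte genes above and resident-macrophage genes below. The comparison used the same 4 libraries (70, 828, 158 and 55 C1q macrophages) with edgeR's quasi-likelihood test on summed UMIs, the library as a block and Benjamini-Hochberg adjustment. The genes that define either population were left out. Of 9580 genes tested, 249 (2.60%) were higher and 287 (3.00%) lower in monocytes at an adjusted p of 0.05. Of the 15 classical genes 11 were higher (list median log2 fold change 2.21 and -0.01 over all genes), and of 14 tested macrophage maturation genes 12 were lower (median -2.08). Ms4a4c, a marker of the name, was not called, and neither were Chil3, F13a1 and Itga4. Both lists had been written with results of these data known, so their direction is no independent evidence.

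Among the genes higher than in C1q macrophages were Hp, Plac8 and Vcan. Plac8 stood at 1429 against 58.5 CPM in untreated skin, 1804 against 343 CPM on oxazolone day 10, 1412 against 454 CPM on oxazolone day 16 and 1351 against 76.6 CPM with MC903, a log2 fold change of 3.16 ± 0.51 (SE, adjusted p = 0.0192) by edgeR. Hp differed by 3.75 ± 0.38 (SE, adjusted p = 0.00609) and Vcan by 3.08 ± 0.32 (SE, adjusted p = 0.00609) on the same scale, each higher in 4 of 4 libraries. Plcb1, a phospholipase of G protein signalling, differed by 3.56 ± 0.51 (SE, adjusted p = 0.0146), and the secreted antiprotease Slpi by 3.41 ± 0.42 (SE, adjusted p = 0.00908). Lcn2 (lipocalin 2, which binds bacterial siderophores) and Mmp8 (a collagenase stored by neutrophils) were also higher, by 3.85 and 3.78, with Lcn2 at 0 in both populations of untreated skin. The 10 neutrophil markers summed to 145 CPM in untreated skin, 191 CPM on oxazolone day 10, 263 CPM on oxazolone day 16 and 392 CPM with MC903 in monocytes, of which Mmp8 gave 19.3, 72.7, 97.9 and 269 CPM and Csf3r 82.0, 78.0, 87.9 and 83.7 CPM. Neutrophil-defining Retnlg, Cxcr2, Ltf and Camp stood at no more than 17.3 CPM in any library. Relative to neutrophils of the same library, the median marker stood at 0.433% in untreated skin (3 markers) and on day 10, 0.899% on day 16 and 0.516% with MC903, and the highest of the 10 at 5.56, 15.8 and 40.6% in the 3 treated libraries. The part of neutrophil RNA in these results was not tested.

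Of the pattern sensors, 5 of 17 tested members were higher than in C1q macrophages, beside 2.60% of all genes tested. They were Clec4e, the Mincle receptor for fungal and mycobacterial lipids (log2 fold change 2.00 ± 0.22, adjusted p = 0.00627), Clec4d, Trem1, Trem3 and the adaptor Tyrobp. Of the cytokine receptors, 3 of 18 were higher, beside the same 2.60%. Il13ra1, a chain of the IL-4 and IL-13 receptor, was among them (log2 fold change 1.11 ± 0.23, edgeR adjusted p = 0.0404), with Csf2rb and Il17ra. Slc2a1, Pgk1, Eno1 and Pkm were the 4 of 13 glycolysis and hypoxia genes that were higher, beside 2.60% of all genes. Of the sensors, receptors and glycolysis genes named here, only Clec4e was called in every fit that left out 1 library. Ptgs2, the prostaglandin synthase COX-2, was higher by 1.78 ± 0.35 (SE, adjusted p = 0.0322) and in 4 of 4 libraries.

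Lower in monocytes were scavenger and resident-macrophage genes. Mrc1, the mannose receptor CD206, stood at 333 against 1818 CPM in untreated skin, 463 against 1783 CPM on oxazolone day 10, 675 against 3068 CPM on oxazolone day 16 and 266 against 3268 CPM with MC903, a log2 fold change of -2.49 ± 0.24 (SE, adjusted p = 0.00573). Cd163, the haemoglobin scavenger receptor, differed by -4.44 ± 0.71 (SE, adjusted p = 0.0189), Folr2 by -3.88 ± 0.44 (SE, adjusted p = 0.00699) and Lyve1 by -6.59 ± 0.85 (SE, adjusted p = 0.0103), the last lower in 3 of 4 libraries. The transcription factor Maf, which holds macrophages in their mature state, differed by -2.20 ± 0.27 (SE, adjusted p = 0.00908). Of 15 chemokines 5 were lower, beside 3.00% of all genes tested. Among them were Ccl8 (log2 fold change -6.02 ± 0.98, edgeR adjusted p = 0.0195), Pf4 and Ccl7, while Cxcl3 was higher. Vcam1, an adhesion ligand, differed by -5.07 ± 0.32 (SE, adjusted p = 0.00234) and the growth factor Igf1 by -3.67 ± 0.38 (SE, adjusted p = 0.00609), both in 4 of 4 libraries. Of the 15 lipid and lysosome genes, 6 were lower (Lpl, Abca1, Ctsb, Ctsd, Lipa and Gpnmb), beside the same 3.00%.

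The counts against C1q macrophages rested on few libraries. Without the oxazolone day 16 library 37 genes were higher and 64 lower, without oxazolone day 10 the counts were 66 and 107, without untreated skin 90 and 119, and of these genes 37 and 64, 63 and 100.0, and 83 and 105 were also called with 4 libraries. Of the 37 called genes named in the paragraphs on this comparison, 16 missed the threshold without untreated skin (edgeR adjusted p 0.0542 to 0.108), among them Plac8, Ccl8, Ccl7, Pf4, Cd163 and Ptgs2. Without oxazolone day 10 it was 13 (0.0510 to 0.135), among them Cd163, Mmp8, Cxcl3 and Ctsd. Without oxazolone day 16 it was 16 (0.0522 to 0.194), among them Clec4d, Trem1, Slc2a1, Lpl and Ptgs2, and Lyve1 was then not tested. Il13ra1, Trem3, Tyrobp, Lipa, Eno1, Pgk1 and Pkm missed it in each of these 3 fits, and Csf2rb, Il17ra and Pgk1 did without MC903 (0.0698 to 0.0957). The 14 genes called in all 4 fits were Abca1, Clec4e, Ctsb, Folr2, Gpnmb, Hp, Igf1, Lcn2, Maf, Mrc1, Plcb1, Slpi, Vcam1 and Vcan. None of the 37 changed direction in a fit that tested it.

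Against Arg1-high macrophages, which take many of the Ly6c2-positive cells on oxazolone day 16, the monocytes showed lower glycolysis, chemokine, matrix and lipid genes and higher cell cycle and blood-monocyte genes. The comparison used the 3 treated libraries (144, 1028 and 67 Arg1-high macrophages), since untreated skin held none. Of 9574 genes, 800 (8.36%) were higher and 863 (9.01%) lower in monocytes. All 14 tested glycolysis and hypoxia genes were lower, with a median log2 fold change of -0.86 and 0.02 over all genes. Bnip3, a mitophagy gene of hypoxic cells, stood at 25.2 against 133 CPM on oxazolone day 10, 35.3 against 284 CPM on oxazolone day 16 and 22.4 against 279 CPM with MC903, a log2 fold change of -3.03 ± 0.25 (SE, adjusted p = 0.00168) by edgeR. Egln3, an oxygen-sensing hydroxylase, differed by -3.20 ± 0.21 (SE, adjusted p = 0.00101) and Ndrg1 by -2.65 ± 0.41 (SE, adjusted p = 0.00837).

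Secreted products were lower in monocytes as well. Of 15 chemokines 11 were lower, and of 17 remodelling genes 11, beside 9.01% of all genes tested. Ccl24 (eotaxin-2, which draws eosinophils) stood at 13.4 against 1140.5 CPM on oxazolone day 10, 142 against 7798 CPM on oxazolone day 16 and 40.4 against 5959 CPM with MC903, a log2 fold change of -6.50 ± 0.27 (SE, adjusted p = 0.000607). The collagenase Mmp13 differed by -7.86 ± 0.46 (SE, adjusted p = 0.000802), the elastase Mmp12 by -6.04 ± 0.55 (SE, adjusted p = 0.00204) and osteopontin (Spp1) by -4.43 ± 0.55 (SE, adjusted p = 0.00478). Slc7a2, which imports arginine, differed by -4.63 ± 0.31 (SE, adjusted p = 0.00101), and Il4ra, the IL-4 receptor chain, by -1.43 ± 0.13 (SE, adjusted p = 0.00225). Fabp5, a fatty acid carrier, differed by -3.15 ± 0.15 (SE, adjusted p = 0.000607). The log2 fold changes of the growth factors Hbegf and Areg were -3.28 and -3.20, and that of Mrc1 was -3.29, each lower in 3 of 3 libraries.

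Of the classical genes, 9 of 15 were higher than in Arg1-high macrophages, beside 8.36% of all genes tested, and Fn1 (fibronectin) was lower. Plac8 differed by 3.09 ± 0.25 (SE, adjusted p = 0.00157), Itga4 (the integrin chain that binds VCAM-1) by 3.09 ± 0.31 (SE, adjusted p = 0.00265) and Ifitm6 by 3.31 ± 0.35 (SE, adjusted p = 0.00304). Of 13 cell cycle genes 8 were higher, beside the same 8.36%. Among them were Top2a (log2 fold change 2.59 ± 0.29, edgeR adjusted p = 0.00339) and Birc5 (log2 fold change 3.14 ± 0.36, edgeR adjusted p = 0.00381), both needed for mitosis. Of the non-classical list 5 of 7 were higher, with Adgre4 at 4.69 ± 0.47 (SE, edgeR adjusted p = 0.00268). Of the 13 interferon-γ response genes 5 were higher, among them Gbp5 (log2 fold change 1.18 ± 0.18, edgeR adjusted p = 0.00856). Both counts stand beside 8.36% of all genes. The class II transactivator Ciita and the peptide-loading chains H2-DMa and H2-DMb1 were also higher, by 2.00, 1.16 and 1.08. Without the oxazolone day 16 library the counts were 81 higher and 193 lower, of which 74 and 188 were among those of the 3 libraries. Of the 24 called genes named for this comparison, Areg, Fn1, Gbp5, H2-DMa, H2-DMb1 and Ndrg1 then missed the threshold (edgeR adjusted p 0.0729, 0.0900, 0.0644, 0.0520, 0.0516 and 0.0692) in the same direction, and the 24 all passed it without oxazolone day 10 and without MC903.

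Against dendritic cells (cells with Flt3 and 5 or more UMIs of H2-Ab1 and without Ly6c2 or Csf1r, 201, 69 and 18 cells in untreated skin and on oxazolone days 10 and 16), 135 of 9445 genes (1.43%) were higher and 109 (1.15%) lower in monocytes. Of the higher genes, 7 were among the 15 classical genes (list median log2 fold change 3.97) and 9 among the 17 tested pattern sensors (median 3.57), including Tlr2, Tlr4, Cd14 and Nlrp3. Chil3 stood at 463 against 0 CPM in untreated skin, 941 against 0.955 CPM on oxazolone day 10 and 2404 against 13.3 CPM on oxazolone day 16, a log2 fold change of 8.82 ± 0.69 (SE, adjusted p = 0.0059) by edgeR. F13a1 differed by 7.21 ± 0.47 (SE, adjusted p = 0.00496), the chemokine receptor Ccr1 by 4.87 ± 0.49 (SE, adjusted p = 0.00861) and Ccl2, a ligand of CCR2, by 4.95 ± 0.39 (SE, adjusted p = 0.0059). The transcription factors Maf and Cebpb were higher, by 4.64 and 3.37. Lower were Ccr7, which guides migrating dendritic cells to lymph nodes (log2 fold change -11.11 ± 0.53, adjusted p = 0.0032), Ccl22 (log2 fold change -9.39 ± 0.62, adjusted p = 0.00496), the cross-presenting cell marker Xcr1 (log2 fold change -6.94 ± 0.57, adjusted p = 0.0059) and the class II genes Cd74, H2-DMb2 and Ciita. The dendritic cells were chosen by H2-Ab1, itself a class II gene, and the monocytes had no such minimum. The lower class II genes of monocytes are therefore tied to that choice and are given as a description. Without untreated skin the counts were 838 and 563, without oxazolone day 10 they were 55 and 39, and without oxazolone day 16 they were 30 and 11. Of the 16 called genes named here, Tlr2, Tlr4, Cd14, Nlrp3, Cd74, H2-DMb2 and Ciita missed the threshold without oxazolone day 10 (edgeR adjusted p 0.0754 to 0.285) and again without oxazolone day 16, when Xcr1 missed it too (0.0590 to 0.189 over the 8). The other 8, among them Chil3, F13a1, Ccr1, Ccl2, Ccr7 and Ccl22, passed it in each fit, and none changed direction.

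**Figure D3:**
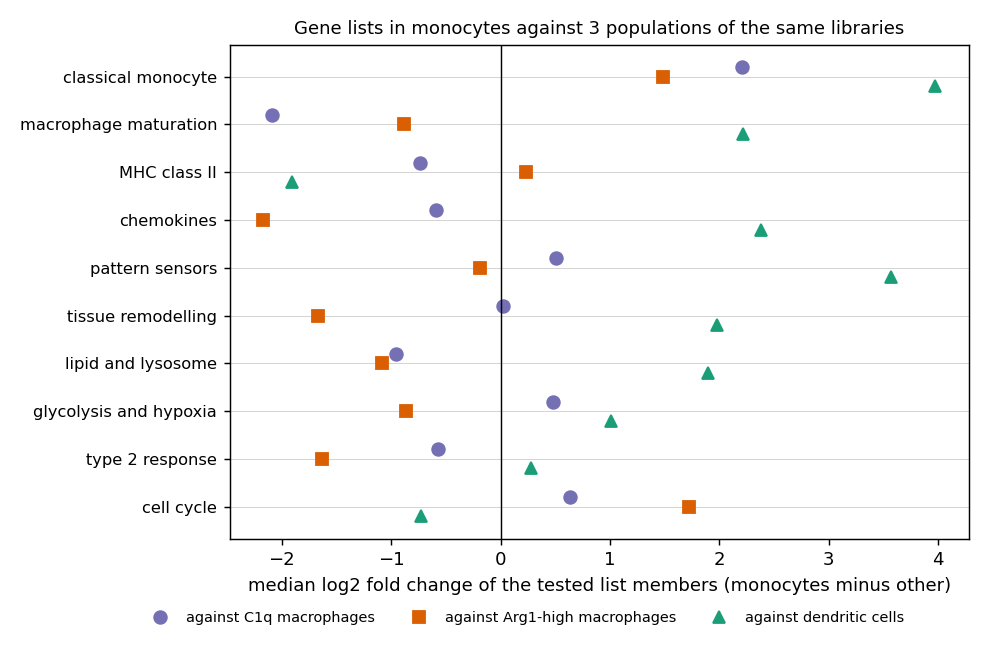
Median log2 fold change of the tested members of 10 gene lists in monocytes against C1q macrophages (circles), Arg1-high macrophages (squares) and dendritic cells (triangles), with 0 marked by the vertical line. Classical monocyte genes lie above 0 in all 3 comparisons (2.21, 1.49 and 3.97), and glycolysis and hypoxia genes lie below 0 against Arg1-high macrophages (-0.86) and above 0 against the other two (0.48 and 1.01).

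Between libraries, monocytes could be compared by ratio only where both held at least 20 members, which left 2 ratios, each with the oxazolone day 10 library below the line. The numerators were oxazolone day 16 and MC903. Both share that denominator, so they are given side by side and no overlap between them is counted. A gene with at least 30 UMIs over the 2 libraries counts as measured and a ratio of at least 2-fold counts as higher or lower. On day 16 against day 10, 352 of 10328 measured genes were higher (3.41%) and 1710 lower (16.6%), with a median log2 ratio of -0.23. With MC903 against day 10, 548 of 9895 were higher (5.54%) and 1953 lower (19.7%), with a median of -0.24. Scaling by trimmed means of M values (TMM) moved the day 16 median to -0.03 and the counts to 536 higher and 1343 lower. When measured genes were cut into 4 equal groups by genomic span, 23.6% of those with the longest span were lower on day 16 and 28.9% with MC903, beside 13.7% and 15.7% of those with the shortest.

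RNA of other skin cells moved between the libraries too, and its part in the ratios was not tested. The summed level of 6 fibroblast markers in monocytes was 2070.3 CPM in untreated skin, 519.8 CPM on oxazolone day 10, 720.1 CPM on oxazolone day 16 and 37.4 CPM with MC903. That of 6 keratinocyte markers was 24.1 CPM in untreated skin, 274 CPM on oxazolone day 10, 1.20 CPM on oxazolone day 16 and 2.99 CPM with MC903, and 1 of 340 cells held 51.9% of the Krt14 UMIs on day 10. T cell, B cell, NK cell, basophil, mast cell and eosinophil markers summed to at most 96.5 CPM per list in any library. Most members held 2 or more UMIs of other lineages (fibroblast, keratinocyte, endothelial, melanocyte, T cell, B cell, basophil and mast cell markers). They were 14 of 18, 261 of 340, 68 of 104 and 20 of 25 members in the same order of libraries. The 10 lowest ratios of day 16 over day 10 were Krt14, Lgals7, Robo2, Dsp, Col8a1, Cytl1, Krt79, Tagln, Fxyd3 and Krt17. These are mainly epithelial and stromal genes, and on day 10 a single monocyte held 25.9% of the Robo2 UMIs and 78.5% of the Col8a1 UMIs.

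MHC class II genes, which present peptides to CD4+ T cells, stood lower on oxazolone day 16 and with MC903 than on oxazolone day 10. Summed over 8 genes, their level in monocytes was 16051 CPM in untreated skin, 8663 CPM on oxazolone day 10, 3527 CPM on oxazolone day 16 and 2958 CPM with MC903. H2-Aa, the α chain of I-A, stood at 3296 CPM in untreated skin, 1919.8 CPM on oxazolone day 10, 706 CPM on oxazolone day 16 and 572 CPM with MC903. Cd74, the invariant chain that escorts class II to the endosome, stood at 6090.3 CPM in untreated skin, 3323 CPM on oxazolone day 10, 1519 CPM on oxazolone day 16 and 1273 CPM with MC903. In both genes untreated skin was highest and MC903 lowest, and the intervals of the 2 oxazolone libraries did not overlap. On day 16, 6 of 8 genes were lower than on day 10, beside 16.6% of all measured genes (list median -1.19). With TMM scaling 4 of 8 passed and the median was -0.99. With MC903, 5 of 8 were lower, beside 19.7% of all genes (median -1.31).

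The β chains followed the same order. H2-Eb1 had a log2 ratio of -1.76 (95% counting interval -1.85 to -1.67) on day 16 and -2.35 (95% counting interval -2.56 to -2.15) with MC903, and H2-Ab1 had -1.25 (95% counting interval -1.33 to -1.17) and -1.54 (95% counting interval -1.71 to -1.38). Ciita, the transactivator that switches class II genes on, stood at 145, 81.5, 22.1 and 34.4 CPM in untreated skin, on oxazolone days 10 and 16 and with MC903. Its log2 ratio was -1.88 (95% counting interval -2.32 to -1.48) on day 16 and -1.25 (95% counting interval -1.92 to -0.64) with MC903. H2-DMa, which loads peptide, stayed within 2-fold in both ratios (-0.70 and -0.53). In C1q macrophages of the same libraries the class II sum was 13845 CPM in untreated skin, 15634 CPM on oxazolone day 10, 8095 CPM on oxazolone day 16 and 10736 CPM with MC903, above the monocyte sum in the 3 treated libraries.

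Class II genes are controlled through a short promoter region with a Y box, the inverted CCAAT motif that the factor NF-Y binds beside the X box. Promoters of 5 of the 8 genes were searched by symbol in the RefSeq table (build GRCm38.p6), while Cd74, H2-Ab1 and Ciita were not searched. Of the 5, 2 (H2-Aa and H2-Eb1) held the letters CTGATTGG on either strand, as did 4.10% of all 32851 promoters of 300 bases. Both are printed because they are α and β chain genes with lower levels on day 16 and with MC903 than on day 10. Shown are the 150 bases before the gene start, read along the gene's strand, with the motif in capitals. H2-Aa lies at chr17:34287824-34287973 on the minus strand and H2-Eb1 at chr17:34305717-34305866 on the plus strand, and the motif starts 51 and 62 bases before the gene start. Binding there was not measured.
H2-Aa: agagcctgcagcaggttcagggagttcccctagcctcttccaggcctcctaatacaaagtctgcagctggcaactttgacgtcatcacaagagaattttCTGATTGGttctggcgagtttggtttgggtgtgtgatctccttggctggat
H2-Eb1: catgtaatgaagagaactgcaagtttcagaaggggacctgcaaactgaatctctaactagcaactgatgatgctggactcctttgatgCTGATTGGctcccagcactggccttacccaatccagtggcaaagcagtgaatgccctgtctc

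Within each library the class II level split the members widely. The per-cell sum of the 8 genes had a median of 9671 CPM in untreated skin (lowest 141, highest 49437), 4647 CPM on day 10 (0 to 47114), 609.6 CPM on day 16 (0 to 29733) and 259 CPM with MC903 (0 to 17192). Members below 1000 CPM, a line drawn after the values were seen, made up 38.9% of 18 cells in untreated skin (exact interval 17.3 to 64.3%), and 35.9% of 340 on day 10 (30.8 to 41.2%). They made up 54.8% of 104 on day 16 (44.7 to 64.6%) and 84.0% of 25 with MC903 (63.9 to 95.5%). The MC903 interval lay above that of day 10 and overlapped that of day 16. With MC903, 1 cell held 41.1% of the class II UMIs.

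The class II-low and class II-high members differed in other genes that the choice did not use. Hp was higher in class II-low members of each library (304 against 85.9 CPM in untreated skin, 474 against 163 on day 10, 341 against 134 on day 16 and 501 against 104 with MC903). Vcan was also higher there in 4 of 4 libraries (2199 against 383, 1503 against 976, 1297 against 759.6 and 897 against 824 CPM), as were F10 and Mmp8. Mrc1 was lower in 4 of 4 (304 against 344, 307 against 549, 379 against 1046 and 91.1 against 805 CPM). Plac8 had no common direction (1859 against 1269, 2360 against 1498, 1366 against 1470 and 1447 against 1056 CPM), and Ly6c2 was similar in both on day 10 (665 and 675 CPM). These splits come from the same cells and were not tested, and the class II-high members with MC903 number 4.

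**Figure D4:**
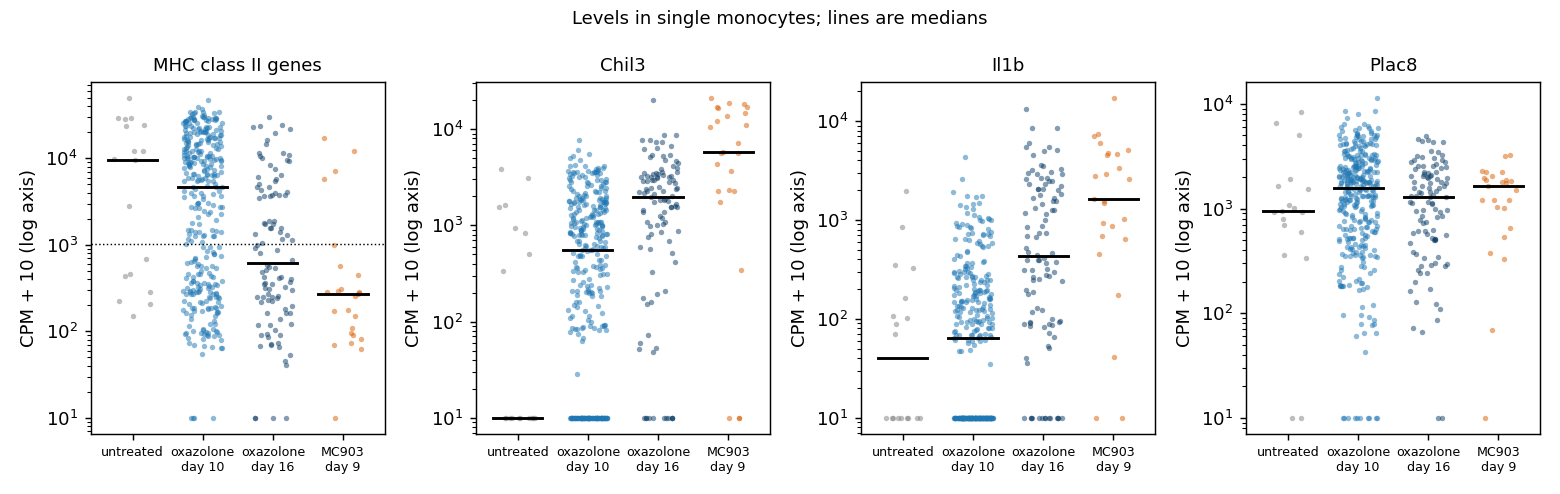
Each point is 1 monocyte, with its level of the summed MHC class II genes, Chil3, Il1b and Plac8 in CPM plus 10 on a log axis, by library, and black lines at the medians. The class II panel shows members above and below the dotted line at 1000 CPM in every library, with medians from 9671 CPM in untreated skin to 259 CPM with MC903.

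Inflammatory mediators stood higher on oxazolone day 16 and with MC903 than on oxazolone day 10. Their summed level over 17 genes was 743 CPM in untreated skin, 661 CPM on oxazolone day 10, 3442 CPM on oxazolone day 16 and 7029 CPM with MC903. Il1b, the secreted pyrogen interleukin 1β, stood at 198 CPM in untreated skin, 184 CPM on oxazolone day 10, 1347 CPM on oxazolone day 16 and 2904 CPM with MC903. The level was similar in untreated skin and on day 10 and higher in the other two, and the share of members without an Il1b UMI was 46.2% on day 10, 13.5% on day 16 and 8.00% with MC903. The log2 ratio of Il1b was 2.88 (95% counting interval 2.77 to 2.98) on day 16 and 3.98 (95% counting interval 3.87 to 4.10) with MC903. Of 15 measured mediators 11 were higher on day 16 than on day 10, beside 3.41% of all measured genes (median 2.36), and with MC903 13 of 14, beside 5.54% (median 3.32).

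Ptgs2 stood at 72.4 CPM in untreated skin, 55.8 CPM on oxazolone day 10, 884 CPM on oxazolone day 16 and 1906 CPM with MC903, with 1 cell holding 86.7% of its UMIs in untreated skin and 27.3% with MC903. Osm, oncostatin M of the IL-6 family, stood at 19.3 CPM in untreated skin, 53.0 CPM on oxazolone day 10, 286 CPM on oxazolone day 16 and 608 CPM with MC903, and was found in 91 of 104 cells on day 16 and 20 of 25 with MC903. Il1rn, the natural antagonist of IL-1, was highest on day 16 (33.8, 40.9, 293 and 95.6 CPM), whereas Tnf was highest with MC903 (145, 55.3, 61.0 and 479.7 CPM). Tnf stayed within 2-fold on day 16 (log2 ratio 0.14, interval -0.15 to 0.43) and was higher with MC903 (3.12, interval 2.88 to 3.35). Nos2, the inducible nitric oxide synthase, had 0 UMIs on day 10, which allows up to 0.574 CPM, and 7 of 104 cells held it on day 16 and 3 of 25 with MC903. Il6 was found in few members on day 10 and more on day 16 (11 of 340, 26 of 104, and 5 of 25 with MC903). Il18, another member of the IL-1 family, stayed within 2-fold of day 10 (91.7, 62.0, 37.7 and 35.9 CPM).

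NF-κB is the transcription factor downstream of IL-1, TNF and Toll-like receptors, and it induces its own inhibitors. The 14 genes of its list summed to 2133 CPM in untreated skin, 1686 CPM on oxazolone day 10, 4222 CPM on oxazolone day 16 and 8175 CPM with MC903 in monocytes. Nfkbia, the inhibitor IκBα, stood at 401 CPM in untreated skin, 250.0 CPM on oxazolone day 10, 1007 CPM on oxazolone day 16 and 2738 CPM with MC903, and the ubiquitin-editing inhibitor Tnfaip3 (A20) at 24.1 CPM in untreated skin, 61.8 CPM on oxazolone day 10, 301 CPM on oxazolone day 16 and 737 CPM with MC903. Nfkbia was found in 103 of 104 members on day 16 and in 25 of 25 with MC903. On day 16, 7 of 14 were higher than on day 10, beside 3.41% of all measured genes (median 1.02), or 11 of 14 with TMM scaling, and with MC903 12 of 14, beside 5.54% (median 1.62). Bcl2a1b, a survival gene of the BCL2 family that has near-identical copies, was higher on day 16 (log2 ratio 1.32, interval 0.87 to 1.77) and lower with MC903 (-1.75, interval -4.06 to -0.15), and reads could be shared among those copies.

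Of these 14 genes, 10 were in the RefSeq promoter table by symbol, and 4 (Tnfaip3, Rel, Nfkbia and Nfkb2) held an NF-κB motif, GGG followed after any 2 bases by TTTCC, on either strand, as did 1.63% of all promoters of that table. The 2 inhibitors are printed because their levels are described above, again as the 150 bases before the gene start on the gene's own strand (build GRCm38.p6), with the motif in capitals. The motif reads on the opposite strand in both and starts 29 bases before the gene start in Nfkbia and 12 in Tnfaip3. Nfkbia lies at chr12:55492648-55492797 and Tnfaip3 at chr10:19015411-19015560, both on the minus strand.
Nfkbia: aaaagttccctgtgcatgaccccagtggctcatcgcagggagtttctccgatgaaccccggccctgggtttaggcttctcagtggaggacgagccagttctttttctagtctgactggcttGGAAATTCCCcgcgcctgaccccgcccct
Tnfaip3: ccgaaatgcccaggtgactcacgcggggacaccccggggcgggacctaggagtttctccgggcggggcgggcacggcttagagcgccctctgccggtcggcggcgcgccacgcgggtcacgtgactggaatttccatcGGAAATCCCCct

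Some of the pattern sensors were higher as well. Tlr2, a receptor for bacterial lipoproteins, stood at 82.0, 45.1, 116 and 244 CPM in the order untreated, oxazolone day 10, oxazolone day 16 and MC903. Cd14, the lipopolysaccharide co-receptor, stood at 57.9, 225, 846 and 807 CPM and the inflammasome sensor Nlrp3 at 82.0, 51.3, 151 and 381 CPM. With Clec4e they made the 4 of 17 measured sensors higher on day 16, beside 3.41% of all measured genes, and with Trem3 the 5 of 17 with MC903, beside 5.54%. The Fc receptor genes Fcgr1, Fcgr2b and Fcgr3 stayed within 2-fold in both ratios.

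**Figure D5:**
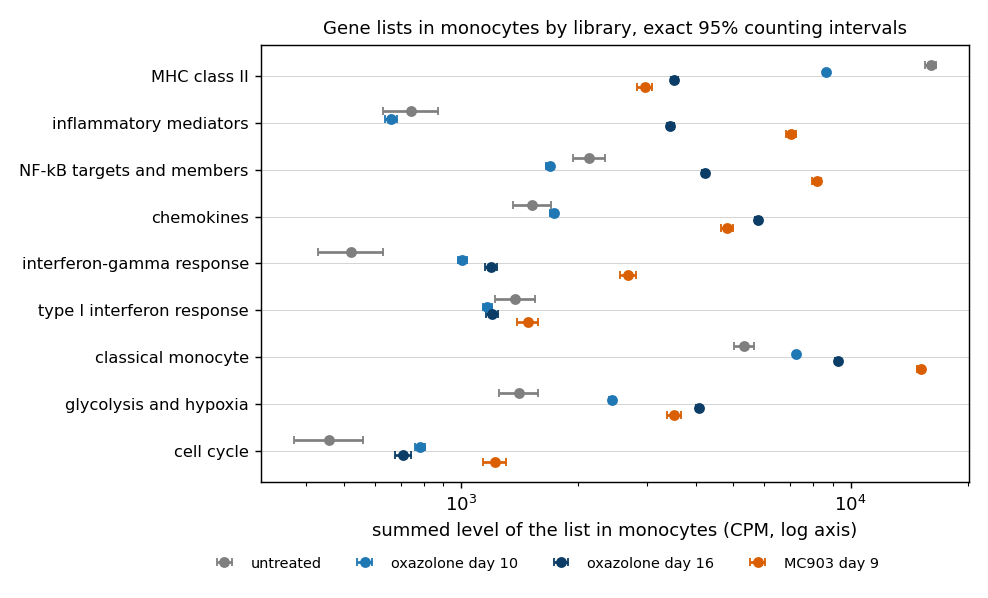
Summed level of 9 gene lists in the monocytes of each library in CPM on a log axis, with exact 95% intervals for counting error. MHC class II runs from 16051 CPM in untreated skin to 2958 CPM with MC903, while inflammatory mediators reach 7029 CPM with MC903 against 661 CPM on oxazolone day 10.

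Chemokines differed in which members were high on day 16 and with MC903. On day 16, 11 of 15 measured chemokines were higher than on day 10 (median 1.71), beside 3.41% of all measured genes. With MC903 6 of 14 were higher, beside 5.54%, and 4 lower, near the 19.7% over all genes. Ccl7 and Ccl12 are ligands of CCR2, and Ccl8 is a neighbouring monocyte chemoattractant protein. Ccl8, Ccl7 and Ccl12 stood on day 16 at 623, 93.9 and 40.1 CPM, against 9.95, 5.93 and 12.2 CPM on day 10 and 4.48, 4.48 and 8.97 CPM with MC903. They were at 0 in the 18 untreated members. The Ccl8 ratio of day 16 was 5.97 (95% counting interval 5.57 to 6.40), with 34 of 104 cells positive and 1 of them holding 27.0% of the UMIs, and it was 2.50 without cells that held 2 or more UMIs of other lineages. In C1q macrophages of day 16 Ccl8 stood at 4985 CPM and in Arg1-high macrophages at 2940.3 CPM, and the part of their RNA in this ratio was not tested.

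Ccl2, the main ligand of CCR2, was present in monocytes of every library at 309 CPM in untreated skin, 70.4 CPM on oxazolone day 10, 216 CPM on oxazolone day 16 and 317 CPM with MC903. Monocytes held 7.84% of all Ccl2 UMIs of the day 10 library, 0.553% on day 16, 3.02% with MC903 and 2.38% in untreated skin. On day 16 the whole library held Ccl2 at 907 CPM against 39.5 CPM on day 10, and nearly all of it lay outside these monocytes. Ccl3 and Ccl4, inflammatory chemokines, were highest with MC903 (Ccl3 14.5, 49.2, 147 and 299 CPM, Ccl4 86.9, 169, 539 and 1647 CPM). Cxcl2, a neutrophil attractant, was highest on day 16 (415, 412, 2272 and 1459 CPM) and was found there in 104 of 104 cells. Ccl24 was also highest on day 16 (0, 13.4, 142 and 40.4 CPM).

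Interferon response genes were mostly within 2-fold on day 16, and part of the interferon-γ list was higher with MC903. The 13 interferon-γ response genes summed to 521 CPM in untreated skin, 1007 CPM on oxazolone day 10, 1194 CPM on oxazolone day 16 and 2681 CPM with MC903. With MC903 6 of 13 were higher than on day 10, beside 5.54% of all measured genes, and Cxcl9 was lower, whereas on day 16 all 13 stayed within 2-fold. Gbp2, a guanylate-binding protein that coats intracellular pathogens, stood at 33.8 CPM in untreated skin, 173 CPM on oxazolone day 10, 239 CPM on oxazolone day 16 and 865 CPM with MC903, and Gbp5 at 33.8, 40.7, 69.8 and 194 CPM. Cxcl10 was found in 11 of 25 cells with MC903 at 463 CPM, and Cxcl9 in 1. The type I interferon list summed to 1375 CPM in untreated skin, 1167 CPM on oxazolone day 10, 1200.1 CPM on oxazolone day 16 and 1481 CPM with MC903, and 4 of 18 members were lower on day 16, beside 16.6% of all measured genes, a share near that background. Ifit1, Ifit2 and Ifit3 were among them (log2 ratios -1.36, -2.52 and -1.45). The Ifit1 ratio was 0.79 without cells that held 2 or more UMIs of other lineages. Isg15, a ubiquitin-like interferon product, stood at similar levels in the 4 libraries (164, 137, 155 and 148 CPM).

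Receptors for the type 2 cytokines IL-4 and IL-13 were present in the members of every library. Il4ra stood at 53.1, 129, 167 and 135 CPM and Il13ra1 at 149.6, 131, 114 and 154 CPM, and the 18 measured cytokine receptors stayed within 2-fold on day 16. With MC903 Csf2rb, the shared chain of the GM-CSF, IL-3 and IL-5 receptors, and Tnfrsf1b were higher (log2 ratios 1.29 and 1.45). Genes of the type 2 response list were in part higher and in part lower, and its member Chil3 is also on the classical monocyte list. On day 16, 5 of 13 were higher (Chil3, Ccl24, Cish, Slc7a2 and Socs3), beside 3.41% of all measured genes, and 2 lower (Mgl2 and Pparg), a share near the 16.6% over all genes. With MC903, 5 of 13 were higher (Chil3, Ccl24, Cish, Tgm2 and Socs3), beside 5.54%, and 5 lower (Mgl2, Pdcd1lg2, Egr2, Myc and Pparg), beside 19.7%. Pparg, a lipid-sensing nuclear receptor, stood at 125, 37.3, 8.43 and 2.99 CPM. Retnla, a strong IL-4 target in macrophages, was found in 1 of 340 members on day 10 and 3 of 104 on day 16.

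Of 13 measured transcription factors of the monocyte lineage, 2 were higher and 1 lower on day 16, beside 3.41% and 16.6% of all measured genes, and 4 were higher and 1 lower with MC903, beside 5.54% and 19.7%. Cebpb, a factor of inflammatory gene expression, stood at 483 CPM in untreated skin, 637 CPM on oxazolone day 10, 1293 CPM on oxazolone day 16 and 1709.7 CPM with MC903, and was higher in both ratios, as was Nr4a1. Runx1 and Bhlhe40 were the other two higher with MC903. Cebpa, which early myeloid cells need, was lower on day 16 (log2 ratio -1.42, interval -1.87 to -0.99), and Maf was lower with MC903 (-1.24, interval -1.59 to -0.90). Spi1 (PU.1) at 415, 320.2, 295 and 324 CPM, Irf8 at 77.2, 87.0, 77.9 and 102 CPM and Klf4 at 140.0, 181, 170.2 and 194 CPM stayed within 2-fold in both ratios. Early response genes, which tissue digestion also induces, summed to 8397 CPM in untreated skin, 4506 CPM on oxazolone day 10, 6081 CPM on oxazolone day 16 and 11581 CPM with MC903, so untreated skin stood above both oxazolone libraries. Zfp36 (tristetraprolin, which destabilises cytokine mRNAs) stood at 1139, 428, 991 and 2512 CPM and Fos at 946, 677, 870.2 and 1882 CPM.

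Adhesion and migration genes were higher in 2 of 14 measured members on day 16 (Fpr1 and Cd44), beside 3.41% of all measured genes, and in 6 of 13 with MC903, beside 5.54%. Cd44, the hyaluronan receptor, stood at 999 CPM in untreated skin, 566 CPM on oxazolone day 10, 1238 CPM on oxazolone day 16 and 1864 CPM with MC903, and Cxcr4, which retains monocytes in bone marrow, at 116, 70.2, 71.8 and 279 CPM. C5ar1, the receptor of complement C5a, was at 0 in the 18 untreated members and at 87.6, 151 and 205 CPM in the treated libraries. Itgam (CD11b) stayed between 241 and 449.9 CPM.

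The 10 highest ratios of day 16 over day 10 were Ccl8, Il1a, Mir155hg, Cd163, Ccl7, Ptgs2, Il6, Cxcl1, Inhba and Ccl24, so macrophage products stood among them. Of 13 measured maturation genes 3 (Cd163, Folr2 and Gas6) were higher than on day 10, beside 3.41% of all measured genes. Cd163 stood at 71.0 CPM in 18 of 104 cells, with 1 cell holding 67.8% of its UMIs. Ctsb (cathepsin B, 637, 591, 1229 and 735 CPM), Cd36 (a fatty acid receptor, 24.1, 17.6, 129.6 and 13.5 CPM) and Spp1 (the secreted protein osteopontin, 9.65, 42.7, 158 and 17.9 CPM) were higher on day 16 too. Glycolysis genes summed to 1404 CPM in untreated skin, 2435 CPM on oxazolone day 10, 4085 CPM on oxazolone day 16 and 3512 CPM with MC903, and on day 16 Pgk1, Eno1 and Egln3 passed 2-fold. Inhba, a subunit of activin A, was among the 10 highest ratios of day 16 (log2 ratio 3.48, interval 3.08 to 3.91), with 1 cell holding 37.6% of its UMIs.

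The 10 highest ratios of MC903 over day 10 were Olr1, Ptgs2, Lsmem1, Acod1, Il1b, Ccrl2, Tnfaip3, Osm, Csrnp1 and Nfkbia. Olr1, the scavenger receptor LOX-1 for oxidised LDL, stood at 9.65 CPM in untreated skin, 10.7 CPM on oxazolone day 10, 46.2 CPM on oxazolone day 16 and 383 CPM with MC903. Acod1, which makes itaconate, stood at 0 CPM in untreated skin, 11.5 CPM on oxazolone day 10, 95.9 CPM on oxazolone day 16 and 248 CPM with MC903. Both were also higher on day 16 than on day 10, by 4.31-fold and 8.36-fold. The 10 lowest ratios were Col8a1, Eln, Gpc6, Chil1, Krt5, Col6a3, Rbms3, Col6a1, Smoc2 and Efna5, mainly matrix and stromal genes, of which a single day 10 cell held up to 86.8% of the UMIs (Eln).

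Cell cycle genes were low in most members, with a per-cell sum under 1000 CPM in 17 of 18 untreated members, 299 of 340 on day 10, 95 of 104 on day 16 and 23 of 25 with MC903. Mki67, a marker of cycling cells, was found in 43 of 340, 18 of 104 and 6 of 25 members of the treated libraries. The cell cycle list summed to 458 CPM in untreated skin, 782 CPM on oxazolone day 10, 709 CPM on oxazolone day 16 and 1219.5 CPM with MC903, and 1 MC903 cell held 64.8% of its UMIs there. Top2a and Birc5 had log2 ratios of 1.66 and 1.77 with MC903, and -2.01 and -0.33 without the members that held 20 or more UMIs of other lineages (2 of 25 with MC903).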

How the data were processed

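The 4 skin libraries were made with droplet single-cell RNA sequencing, 1 per group. Per the labels, each pooled 3 mice. The deposited matrices hold raw UMI counts per gene and cell barcode, which the authors made with Cell Ranger. The submitters' processing notes name version 8.0 and the mm10 genome, while the file headers name 7.2.0 for untreated skin and oxazolone day 10 and 8.0.0 for oxazolone day 16 and MC903. The deposited barcode and feature lists hold names with no scale (unit other), per the file headers.

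After the limits on gene number and mitochondrial share, barcodes were kept as cells (7702, 8301, 7909 and 3843 of 7755, 8708, 8199 and 4185), and the 487 members were taken by the limits given at the start. The members and gene lists were chosen with earlier results of these data known. Counts were summed over the members of each library and divided by the summed total (CPM). Intervals are exact Poisson for levels, exact Clopper-Pearson for shares and exact conditional binomial for ratios, and they cover counting error only. No count test between groups was possible with 1 library each. A gene was measured with 30 UMIs, called at 2-fold, and set against a floor of 3 UMIs per library where a level was 0.

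Monocytes were tested against other populations of the same libraries with edgeR 4.0.16 (R 4.3.3), quasi-likelihood, TMM scaling, filterByExpr and Benjamini-Hochberg adjustment at 0.05. Each SE was back-calculated as the absolute log2 fold change over the square root of the F statistic of the test. The library was a block because both populations came from the same pooled animals. These p-values set the difference between the populations against how much that difference varied between libraries of different treatments. Populations under 10 cells in a library were left out, so Arg1-high macrophages lacked untreated skin and dendritic cells lacked MC903. The genes of either definition were not tested. The procedure was tested on simulated data.

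Named genes were the 10 highest and 10 lowest ratios among genes with 50 UMIs in 10 cells of the higher library, up to 4 members per list and ratio with the largest change, and for population tests the 10 highest and lowest called genes above a mean log2 CPM of 5 and up to 3 called members per list. Other list members, such as Spi1, Irf8, Klf4, Tnf, Il18, Il1rn, Isg15, Cxcl2, Itgam, Cx3cr1 and the granule genes, were named after their values were seen. The listed genes Mx1, Ero1a and Clec7a had no row under those symbols. Doublets were not removed from the main values. Scrublet (scanpy 1.11.5, expected rate 0.8% per 1000 cells) marked 2, 19, 7 and 0 members, and leaving them out was an alternative, as were DESeq2 1.42.0, TMM for ratios, other Ly6c2 and UMI minimums and thinning to 2000 UMIs. Other tools were Python 3.11.15 with numpy 2.4.6, scipy 1.17.1, pandas 2.3.3 and matplotlib 3.10.9. Some items are not reported here.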

Additional observations from a re-analysis of the deposited data

Results flagged for a closer look

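Fibroblast markers in the monocytes pointed in opposite directions in the 2 ratios against oxazolone day 10. Their median log2 ratio was 0.46 on oxazolone day 16 and -3.74 with MC903, and the difference was not tested. Relative to fibroblasts of the same library, the median level of the 6 markers in monocytes was 5.46% in untreated skin, 2.65% on oxazolone day 10, 3.45% on oxazolone day 16 and 0.181% with MC903.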

How the results depend on the processing

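Among phagocytes, too, the share of monocytes was lowest in untreated skin and highest on oxazolone day 10 (3.45% in untreated skin, 17.6% and 6.79% on the 2 oxazolone days, 9.12% with MC903). With the thinned gate (0.0544%, 1.21%, 0.263% and 0.0567%) oxazolone day 10 was again highest, although its Arg1 limit stayed on unthinned cells. A Ly6c2 minimum of 2 or 5 UMIs gave 4.89% and 2.99% on oxazolone day 10. On day 16 against day 10, the count of higher genes was 536 with TMM, 229 with a minimum of 100 UMIs, 534 with 10 and 206 among genes of short genomic span (under the median). The count of lower genes was 643, 2875 and 683 under the last 3 of these, and 641 without cells that held 2 or more UMIs of other lineages. Leaving those cells out removed 261 of 340 members on day 10 and 68 of 104 on day 16. It left 5913 measured genes, beside 10328 in the main setting. With MC903 against day 10 the higher genes were 347 and 1061 with minimums of 100 and 10 UMIs and 300 among short genes, and the lower genes were 824 and 780 with the minimum of 100 UMIs and among short genes. The alternatives on short genes and on 20 UMIs of other lineages were chosen after seeing the data.

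Against C1q macrophages, DESeq2 called 541 genes higher and 466 lower, and without a filter on low counts the counts were 621 and 803. Thinned cells gave 135 and 171, the fit with no replicate block 46 and 95, and without doublets 389 were higher. Leaving out 1 library gave 37 to 212 higher and 64 to 276 lower. Against Arg1-high macrophages, thinned cells gave 434 and 464, the fit with no replicate block 256 and 297, and no filter 1431 lower, with 81 to 654 higher and 193 to 761 lower when 1 library was left out. Against dendritic cells, DESeq2 called 355 and 266, no filter 624 and 480, and without doublets 240 and 202, with 66 lower with no replicate block. Leaving out 1 library gave 30 to 838 higher and 11 to 563 lower. Fewer libraries or counts enter some of these fits. For the other differences the cause was not tested.

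Of 883 single-gene values of day 16 against day 10 under alternatives, 719 stayed within the 95% counting interval of the reported value, 159 moved past it and 5 reversed. They were Fabp4 at 0.48 without doublets and 0.26 without cells of 20 or more UMIs of other lineages, Gas6 at -1.25 with 5 UMIs of Ly6c2, and Ifit1 at 0.79 and Timp1 at -0.29 without cells of 2 or more such UMIs. With MC903, 5 of 850 reversed, all without the 20-UMI cells, namely Birc5 at -0.33, Cd209a at -2.43, Cxcr2 at -2.05, Il7r at -1.27 and Top2a at -2.01. Leaving out cells of 2 or more UMIs of other lineages left 5 MC903 members, too few for a value. Named genes against C1q macrophages, Arg1-high macrophages and dendritic cells missed the threshold in 103 of 403, 70 of 549 and 58 of 369 alternative fits, and none reversed. Depth limits what can be said of untreated skin, whose 18 members held 207214 UMIs.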

Other observations

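Of the 11 genes listed for monocyte-derived dendritic cells, 6 (Cd209a, Mgl2, Clec10a, Flt3, Zbtb46 and Itgax) stood highest in the 18 untreated members. The co-stimulatory genes Cd86, Cd40 and Cd80 did not, and Cd86 and Cd40 were lowest there (Cd86 149.6, 236, 465 and 448 CPM in the order untreated, oxazolone day 10, oxazolone day 16 and MC903), while Ccl17 and Ccr7 were at 0 there. Cd209a, a C-type lectin of monocyte-derived dendritic cells, stood at 357 CPM in untreated skin, 8.61 CPM on oxazolone day 10, 7.63 CPM on oxazolone day 16 and 38.9 CPM with MC903, with UMIs in 4 of 18, 12 of 340, 2 of 104 and 2 of 25 members. Clec10a stood at 164, 27.2, 18.9 and 29.9 CPM in the same order, Mgl2 at 372, 7.84, 2.81 and 1.49 CPM and the transcription factor Irf4, which is not on that list, at 72.4, 4.59, 1.61 and 1.49 CPM. Flt3, the growth factor receptor of dendritic cells, stood at 91.7, 19.5, 2.81 and 20.9 CPM. With few untreated members these levels rest on few cells, and 1 cell held 41.9% of the Cd209a UMIs there.

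Apoe, a lipid carrier of macrophages, stood at 1144 CPM in untreated skin, 677 CPM on oxazolone day 10, 516 CPM on oxazolone day 16 and 1081 CPM with MC903. Plcb1 had an untreated level of 1013 CPM against 801, 963 and 1231 CPM in the treated libraries. Mmp8 stood at 19.3, 72.7, 97.9 and 269 CPM, Lcn2 at 0, 39.8, 129.6 and 323 CPM and Slpi at 14.5, 156, 156 and 345 CPM, so each was highest with MC903.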
